A study of Homo sapiens with 8 samples.

Results

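The genes described here are 8 transcription factors that mark cell lineages of the lung or of the forebrain, NKX2-1, FOXA1, FOXA2, SOX2, TP63, NEUROD1, INSM1 and POU2F3. They were chosen by symbol from a table of 37441 genes measured by RNA-seq in 8 libraries. The cells were NCI-H1581 and NCI-H1703, established lines of non-small cell lung cancer (NSCLC) that are sensitive to the FGFR inhibitor CPL304110, and the variants selected for resistance to it, NCI-H1581R and NCI-H1703R, with 2 libraries per variant. The resistant variants came from culture in CPL304110 that began at 50 nM and rose to 2.5 µM for NCI-H1581R and 5 µM for NCI-H1703R, over 4 to 6 months, and each line gave 1 resistant variant. NCI-H1581 was kept in DMEM/F12 and NCI-H1703 in RPMI 1640, so the line and its medium cannot be told apart. Cells were harvested 24 h after fresh medium was added, and whether that medium held the inhibitor is not given in the sources used here. The second replicate was a repeat of the same procedure, so p-values measure the spread between repeat cultures of 1 variant.

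Lineage factors bind DNA at the genes of a cell type and keep its programme of expression in place. In the lung, NKX2-1 (also called TTF-1) is the homeobox factor of the alveolar epithelium and the standard marker of lung adenocarcinoma, and it also patterns the ventral forebrain. FOXA1 and FOXA2 are forkhead pioneer factors of the endoderm, which open chromatin for other factors. SOX2 and TP63 belong to the basal cells of the airway, and both genes lie on the long arm of chromosome 3, a region often amplified in squamous lung cancer. NEUROD1 and INSM1 mark neuroendocrine tumours, and POU2F3 marks tuft cells and the small cell cancers that resemble them. SOX2 is also a factor of neural progenitors, as NEUROD1 is of maturing neurons.

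Positions are those of GENCODE v44 on GRCh38. NKX2-1 lies at chr14:36516392-36521149 on the minus strand, and FOXA1 lies about a megabase away at chr14:37589552-37596059, also on the minus strand. SOX2 is a gene of 1 exon at chr3:181711925-181714436 inside the long non-coding gene SOX2-OT, which was not analysed here. TP63 spans chr3:189631389-189897276, with 14 exons in its canonical transcript. NEUROD1 is at chr2:181668295-181680827, INSM1 at chr20:20368104-20370949, FOXA2 at chr20:22580998-22585455 and POU2F3 at chr11:120236640-120319945. Exon bases of NKX2-1 are shared with the antisense gene NKX2-1-AS1 and a protein-coding SFTA3 entry, neither analysed here, those of FOXA1 with TTC6 on the opposite strand and those of NEUROD1 with CERKL, and reads from such bases may have been divided between the genes.

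The sequences just upstream of SOX2 and TP63 are shown because both genes lie on the long arm of chromosome 3 and SOX2 fell in NCI-H1703R. TP63 had 4 and 7 counts in NCI-H1703 and 9 and 6 in NCI-H1703R, too few to show a fall. Each is the 250 bases before the RefSeq start (GRCh38.p14, plus strand), at chr3:181711675-181711924 for SOX2 and chr3:189631139-189631388 for TP63. Capitals mark matches, on either strand, to a forkhead core (TGTTTAC), a SOX core (ACAAAG), a POU octamer (ATGCAAAT), a TATA box (TATAAA) or a GC box (GGGCGG).
SOX2: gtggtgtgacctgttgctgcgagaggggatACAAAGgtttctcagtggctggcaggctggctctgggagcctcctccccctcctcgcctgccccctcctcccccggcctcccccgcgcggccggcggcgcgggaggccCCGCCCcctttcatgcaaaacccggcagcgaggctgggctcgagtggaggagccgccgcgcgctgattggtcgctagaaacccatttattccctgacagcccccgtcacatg
TP63: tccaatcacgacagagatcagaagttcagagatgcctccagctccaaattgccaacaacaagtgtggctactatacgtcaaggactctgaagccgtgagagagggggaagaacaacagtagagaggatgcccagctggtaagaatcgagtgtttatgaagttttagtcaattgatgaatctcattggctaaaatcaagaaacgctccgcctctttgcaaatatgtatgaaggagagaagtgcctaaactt
The SOX2 window held 1 SOX core and 1 GC box, which did not overlap, with 68.8% GC and 20 CpG pairs. The TP63 window held no match, with 44% GC and 6 CpG pairs. Over all 35116 promoter windows of this length the median GC content was 58% and the median number of CpG pairs was 11. A SOX core stood in 13.7% of them, a GC box in 42.6%, a TATA box in 10.7%, a forkhead core in 2.98% and a POU octamer in 1.63%. The SOX2 window overlaps an exon of the non-coding gene ENSG00000289435.

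RefSeq windows were found for 5 of the 8 members, SOX2, TP63, NKX2-1, FOXA1 and NEUROD1. The nearer of the NKX2-1 windows to the gene's 3′ end held a forkhead core 130 bases before the start, shown here with 10 bases on either side because FOXA1 rose together with NKX2-1 in NCI-H1581R (chr14:36519670-36519696, minus strand). That window overlaps exons of NKX2-1 and of NKX2-1-AS1, and so lies inside the annotated gene.
NKX2-1: aacttaaaggTGTTTACcttgtcatca
The other NKX2-1 window held GC boxes and had 70.8% GC. The FOXA1 window held SOX cores and GC boxes, with 67.2% GC and 26 CpG pairs. A match to these letters is a description of the sequence and was not tested for binding.

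Libraries held 33800389 to 40031710 estimated counts, so 3 counts, taken as the limit of detection, stood for 0.0749 to 0.0897 CPM (counts scaled to a common library size). Such limits cover counting error only. Of the 8 members, 4 had at least 10 counts over the 8 libraries and entered the tests, NKX2-1, SOX2, TP63 and FOXA1. Markers of other cell types were checked in every variant. Cells are labelled as lung cancer, yet 6 epithelial markers summed to 19.4 to 23.9 CPM in NCI-H1581 and 13.3 to 16.1 CPM in NCI-H1581R. They summed to 74.0 to 77.1 CPM in NCI-H1703 and 7.18 to 9.09 CPM in NCI-H1703R. Most of the sum in NCI-H1703 was KRT18, at 64.3 and 65.4 CPM, against 2.88 and 2.48 CPM in NCI-H1703R. Most of that in NCI-H1581 was EPCAM, at 15.9 and 13.1 CPM, against 0.703 and 0.209 CPM in NCI-H1703. The 6 mesenchymal markers, mostly VIM, summed to 6114 to 6727 CPM in NCI-H1581 and 4920 to 5541 CPM in NCI-H1581R. In NCI-H1703 they summed to 3738 to 3816 CPM and in NCI-H1703R to 2680 to 3123 CPM. Among them FN1 went from 0.623 and 1.42 CPM in NCI-H1581 to 745 and 919 CPM in NCI-H1581R. ZEB1 rose there from 1.66 and 2.30 to 18.9 and 31.7 CPM and TWIST1 from 10.0 and 10.7 to 38.1 and 37.2 CPM. VIM fell in NCI-H1581R from 6711 and 6098 to 4738 and 3931 CPM and CDH2 from 3.53 and 2.17 to 1.01 and 1.14 CPM. In the other line CDH2 went from 50.2 and 48.6 CPM in NCI-H1703 to 1.08 and 1.16 CPM in NCI-H1703R. The 5 leukocyte markers summed to at most 2.46 CPM and the 4 endothelial markers to at most 0.449 CPM, with CD3E at 0 in all libraries. The 5 fibroblast markers summed to 2257 to 2541 CPM in NCI-H1581 and 1016 to 1035 CPM in NCI-H1581R, and to 2.81 to 3.05 CPM in NCI-H1703 and 23.9 to 27.9 CPM in NCI-H1703R. Most of the sum in NCI-H1581 was COL1A2, at 2325 and 2046 CPM. In NCI-H1581R LUM went from 98.6 and 107 to 0.292 and 0.737 CPM and DCN from 48.9 and 43.4 to 0.239 and 0.0762 CPM. PDGFRB overlapped between these variants. COL1A1 went from 1.05 and 0.897 CPM in NCI-H1703 to 26.4 and 21.8 CPM in NCI-H1703R. The part of these shifts in the results below was not tested.

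**Figure D1:**
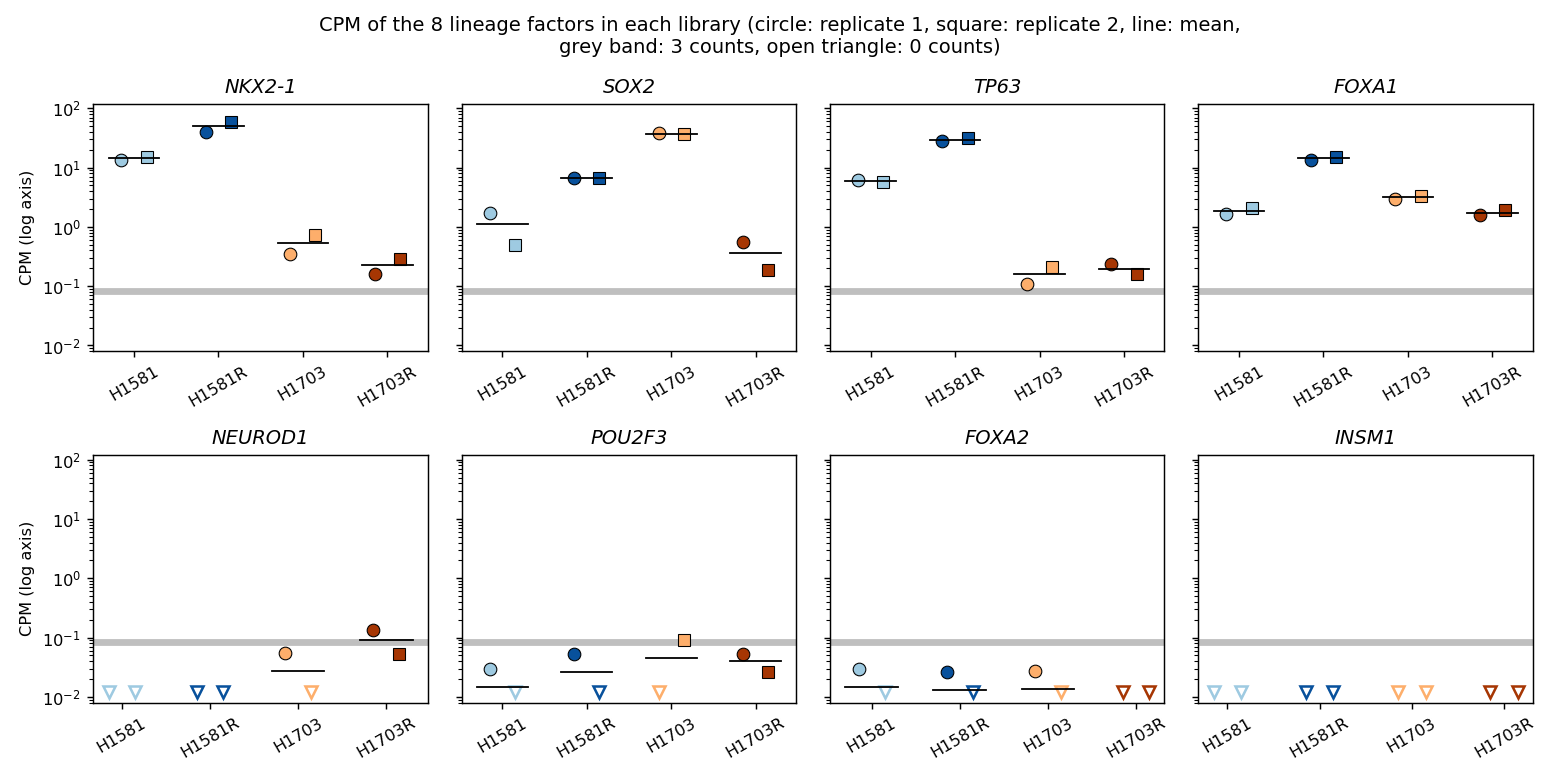
CPM of the 8 members (log axis) in each library of the 4 variants, with circles for replicate 1, squares for replicate 2, lines for means, a grey band at 3 counts and open triangles for 0 counts. NKX2-1, SOX2, TP63 and FOXA1 were higher in both NCI-H1581R libraries than in both NCI-H1581 libraries, SOX2 was highest in NCI-H1703, and the other 4 members had at most 5 counts in any library.

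The first question was how the lineage factors differed between the resistant and the sensitive variant of NCI-H1581. All 4 members tested rose in NCI-H1581R, the lung factor NKX2-1 by 3.51-fold, TP63 by 4.93-fold, SOX2 by 6.25-fold and FOXA1 by 7.73-fold. With edgeR's quasi-likelihood test and an adjusted p threshold of 0.1, 15.1% of all 18203 genes tested were called in this comparison, 7.63% as higher and 7.44% as lower. The 4 of 4 members called higher had a median log2 fold change of 2.47, against 0.04 over all genes tested.

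NKX2-1 had 457 and 601 counts in NCI-H1581 and 1509 and 2341 counts in NCI-H1581R. Its level went from 14.3 ± 1.02 CPM to 49.8 ± 13.7 CPM (mean ± SD, n = 2 each), so both resistant libraries lay above both sensitive libraries. The log2 fold change was 1.81 with a standard error (SE) of 0.25, and edgeR gave an adjusted p of 0.00600.

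FOXA1 had 55 and 84 counts in NCI-H1581 and 510 and 604 counts in NCI-H1581R, which is 1.86 ± 0.329 CPM and 14.4 ± 1.27 CPM (n = 2 each). The groups did not overlap, as for 50.6% of all genes tested in this comparison. The log2 fold change was 2.95 (SE 0.28) and edgeR gave an adjusted p of 0.00136. TTC6, whose exons meet those of FOXA1 on the other strand, had 0 and 0 counts in NCI-H1581 and 9 and 21 in NCI-H1581R, far fewer than FOXA1.

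TP63 had 211 and 232 counts in NCI-H1581 and 1045 and 1229 counts in NCI-H1581R, or 6.03 ± 0.331 CPM and 29.5 ± 2.44 CPM (n = 2 each). Its log2 fold change was 2.30 (SE 0.21), and the adjusted p from edgeR was 0.00103. The table counts genes, so the long and short protein forms of TP63, which arise from different starts, were not told apart.

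SOX2 had 58 and 20 counts in NCI-H1581 and 249 and 262 counts in NCI-H1581R, and its sensitive libraries differed more from each other than its resistant libraries did. The means were 1.11 ± 0.864 CPM and 6.64 ± 0.0277 CPM (n = 2 each), with a log2 fold change of 2.64 (SE 0.47, adjusted p 0.0174 by edgeR). Without NCI-H1581 replicate 2, the log2 fold change was 1.95 and the edgeR adjusted p rose to 0.110, so this call rested on that library, and without NCI-H1581 replicate 1 they were 3.71 and 0.0234.

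The same question for NCI-H1703 had another answer. SOX2 fell 98.6-fold in NCI-H1703R and was the only member called, while 14.7% of all genes tested were called, 7.06% as higher and 7.67% as lower. Among the 4 members tested the median log2 fold change was -1.01, against 0.00 over all genes tested. In both lines most calls over all genes were lost when either sensitive library was left out. A call lost in that way does not single out the gene named.

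SOX2 had 1407 and 1244 counts in NCI-H1703 and 21 and 7 counts in NCI-H1703R. These are 37.6 ± 0.588 CPM and 0.370 ± 0.262 CPM (n = 2 each), so the resistant libraries kept few counts but stayed above the limit of detection. The log2 fold change was -6.62 (SE 0.26), with an adjusted p of 0.000399 in edgeR, and it stood 65th from the lowest of the 18203 genes tested. It was -7.61 without NCI-H1703R replicate 1 and -6.05 without NCI-H1703R replicate 2, and was called in both cases.

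FOXA1 had 111 and 112 counts in NCI-H1703 and 60 and 72 counts in NCI-H1703R, or 3.17 ± 0.247 CPM and 1.74 ± 0.222 CPM (n = 2 each). The groups did not overlap, which held for 51.3% of all genes tested. The log2 fold change of -0.83 (SE 0.29) did not pass the threshold in edgeR (adjusted p 0.151). With the replicate number as a block it was -0.84 with an edgeR adjusted p of 0.0473, and it passed then.

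NKX2-1 had 13 and 24 counts in NCI-H1703 and 6 and 11 counts in NCI-H1703R, a log2 fold change of -1.18 (SE 0.71, adjusted p 0.377 by edgeR). TP63 had 4 and 7 counts in NCI-H1703 and 9 and 6 counts in NCI-H1703R, a log2 fold change of 0.37 (SE 0.76, adjusted p 0.839 by edgeR). With 4 to 7 counts of TP63 in NCI-H1703, a fall of TP63 could not be detected at this depth.

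**Figure D2:**
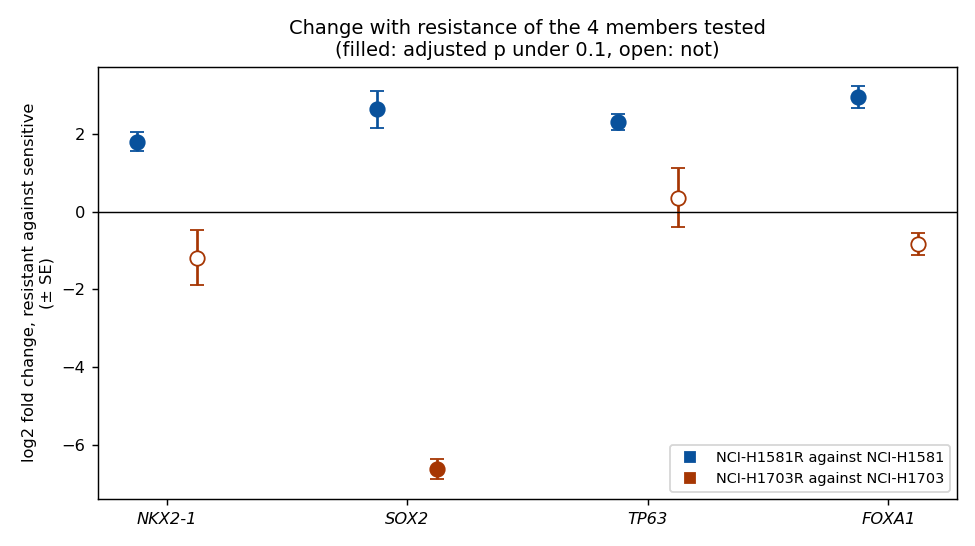
Log2 fold changes of resistant against sensitive variants (points, with bars for SE) for NKX2-1, SOX2, TP63 and FOXA1 in both lines, filled where the adjusted p was under 0.1. All 4 values for NCI-H1581R were above 0, from 1.81 to 2.95, and only SOX2 was called in NCI-H1703R, at -6.62.

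Whether the change with resistance differed between the lines was tested with an interaction term over all 8 libraries, written as the change in NCI-H1703 minus that in NCI-H1581. This difference was called for 15.4% of all genes tested, 6.93% with a positive and 8.47% with a negative sign, and for 3 of the 4 members, all negative. It was -9.29 for SOX2 (SE 0.59, adjusted p 5.53e-05), -3.80 for FOXA1 (SE 0.37, adjusted p 0.000459) and -3.02 for NKX2-1 (SE 0.86, adjusted p 0.0623) on the log2 scale, all by edgeR. For TP63 it was -1.96 (SE 0.89) and was not called by edgeR (adjusted p 0.231), while DESeq2 gave an adjusted p of 0.0335. The call for NKX2-1 was lost without NCI-H1581 replicate 1 (-2.95, adjusted p 0.1001), without NCI-H1703 replicate 2 (-2.41, adjusted p 0.345) and without NCI-H1703R replicate 1 (-2.65, adjusted p 0.191) or replicate 2 (-3.51, adjusted p 0.123) in edgeR.

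The sensitive lines were then compared with each other. NKX2-1 and TP63 were higher in NCI-H1581, SOX2 was higher in NCI-H1703, and FOXA1 differed least among the members tested. In this comparison 62.9% of all genes tested were called, 32.5% as higher in NCI-H1703 and 30.4% as lower, so the 4 calls among 4 members stand against a high background. The libraries of the lines were apart for every member tested, as for 76.7% of all genes tested. TP63 was 37.7-fold lower in NCI-H1703 (log2 fold change -5.24, SE 0.47, adjusted p 5.05e-05) and NKX2-1 was 27.1-fold lower (-4.76, SE 0.33, adjusted p 1.56e-05), while SOX2 was 35.3-fold higher (5.14, SE 0.30, adjusted p 6.38e-06), all by edgeR. The value for SOX2 was 6.23 without NCI-H1581 replicate 1 and 4.45 without replicate 2, and that for NKX2-1 was -5.35 without NCI-H1703 replicate 2. FOXA1 was 1.68-fold higher (0.75, SE 0.33), and its edgeR adjusted p of 0.0883 rose to between 0.1002 and 0.268 when any of the 4 libraries was left out and was 0.196 with DESeq2.

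Between the resistant variants all 4 members tested were lower in NCI-H1703R than in NCI-H1581R. Here 52.5% of all genes tested were called, 25.9% as higher and 26.7% as lower. NKX2-1 was 213-fold lower, TP63 143-fold, SOX2 17.4-fold and FOXA1 8.07-fold, with edgeR adjusted p of 0.000130, 7.10e-05, 0.00160 and 0.000571. The log2 fold change of SOX2 was -4.12, and became -5.12 without NCI-H1703R replicate 1 and -3.58 without NCI-H1703R replicate 2. Groups of every member tested were apart in this comparison, as for 71.3% of all genes tested. SOX2 was higher in NCI-H1703 than in NCI-H1581 among the sensitive variants and lower in NCI-H1703R than in NCI-H1581R among the resistant variants. The comparisons of sensitive and of resistant variants share libraries with the comparisons within lines.

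Levels of different genes were set side by side per kilobase of the canonical transcript. In NCI-H1581R, NKX2-1 had the highest level at 22.7 CPM per kb, followed by TP63 at 5.97, FOXA1 at 4.12 and SOX2 at 2.64 CPM per kb. In NCI-H1581 the order was NKX2-1 at 6.52, TP63 at 1.22, FOXA1 at 0.531 and SOX2 at 0.442 CPM per kb, where the libraries of FOXA1 and SOX2 overlapped. In NCI-H1703 SOX2 stood first at 15.0 CPM per kb, with FOXA1 at 0.905, NKX2-1 at 0.244 and TP63 at 0.0321. In NCI-H1703R FOXA1 was first at 0.497 CPM per kb, and SOX2 at 0.147, NKX2-1 at 0.102 and TP63 at 0.0401 followed, with overlapping libraries for SOX2 and NKX2-1.

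The remaining 4 members were at or near 0. INSM1 had 0 counts in all 8 libraries, which allows up to 3 counts, or 0.0897 CPM, in any library. FOXA2 had 3 counts over all libraries and at most 1 in any. NEUROD1 had 0 counts in the 4 NCI-H1581 and NCI-H1581R libraries, 2 and 0 in NCI-H1703 and 5 and 2 in NCI-H1703R. POU2F3 had 9 counts in all, with at most 3 in any library. None of these 4 genes had 10 counts in total, so no fold change is given for them.

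Of 20 alveolar and adenocarcinoma genes, among them those NKX2-1 is known for in the lung, 14 were tested, and in NCI-H1581R 1 was called higher and 1 lower, while 15.1% of all genes tested were called. The gene called higher was SFTA3, a long non-coding gene that starts 7.32 kb from NKX2-1 on the same strand, with 59 and 125 counts in NCI-H1581 and 777 and 543 in NCI-H1581R (log2 fold change 2.80, SE 0.36, adjusted p 0.00484 by edgeR). MUC1, a membrane mucin, fell from 604 and 449 to 211 and 232 counts (-1.32, SE 0.29, adjusted p 0.0360 by edgeR), a call lost without NCI-H1581 replicate 1 (adjusted p 0.285). The surfactant gene SFTPB had 58 and 92 counts in NCI-H1581 and 40 and 53 in NCI-H1581R. The surfactant gene SFTPC had 0 in every library. Other genes of the list moved in both directions in NCI-H1581R but were not called. SCGB3A2 went from 0 and 0 to 10 and 18 counts, AGER from 2 and 0 to 21 and 4. NAPSA went from 12 and 7 to 12 and 28 counts, so its variants overlapped. LPCAT1 had 17115 and 20227 counts in NCI-H1581 and 22582 and 23836 in NCI-H1581R. ABCA3 had fewer in NCI-H1581R, 2691 and 2743 against 3387 and 4017, as did ETV5, 5151 and 5519 against 6189 and 8253. In NCI-H1703R 4 of the 14 fell and none rose, among them ABCA3, a lipid transporter of surfactant storage, and the ETS factor ETV5. Their log2 fold changes were -0.62 and -1.07 (edgeR adjusted p 0.0394 and 0.0463), and both calls were lost without either NCI-H1703 library (adjusted p 0.186 to 0.291), that of ABCA3 also without NCI-H1703R replicate 2 (0.135). The other calls, LAMP3 (-0.45) and LPCAT1 (-0.49), were lost when any library of either variant was left out. Their log2 fold changes were then -0.51 to -0.39 and -0.63 to -0.34.

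Squamous and basal genes, the programme TP63 is known for, were not called in NCI-H1581R. Of 20 such genes 16 were tested, and 0 were called there in either direction by edgeR. The median of their log2 fold changes was -0.20. In NCI-H1703R 2 fell and none rose, ITGB4, an integrin of the basal membrane contact (-1.38, adjusted p 0.0262), and NGFR, a neurotrophin receptor of basal cells (-1.27, adjusted p 0.00995), by edgeR. Without NCI-H1703 replicate 1 or 2 these were not called. The log2 fold changes were then -1.20 and -1.53 for ITGB4 and -1.24 and -1.30 for NGFR. Several genes of this list, keratins among them, followed the replicate number in place of the variant. KRT5, the basal keratin, had 0 or 1 counts in every replicate 1 library and 35 to 47 in every replicate 2 library. KRT13 had 3 to 6 counts in replicate 1 and 99 to 123 in replicate 2 libraries, and KRT17 had 11 to 30 and 89 to 126. PKP1 had 0 counts in replicate 1 and 4 to 12 in replicate 2 libraries, and TRIM29 had 7 to 11 and 19 to 24. KRT6B ran the other way, with 3 to 7 counts in replicate 1 and 0 in replicate 2 libraries. TP63 did not follow the replicate number, with 1045 and 1229 counts in the NCI-H1581R libraries and 4 and 7 in those of NCI-H1703. The source of the counts that followed the replicate number was not tested.

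**Figure D3:**
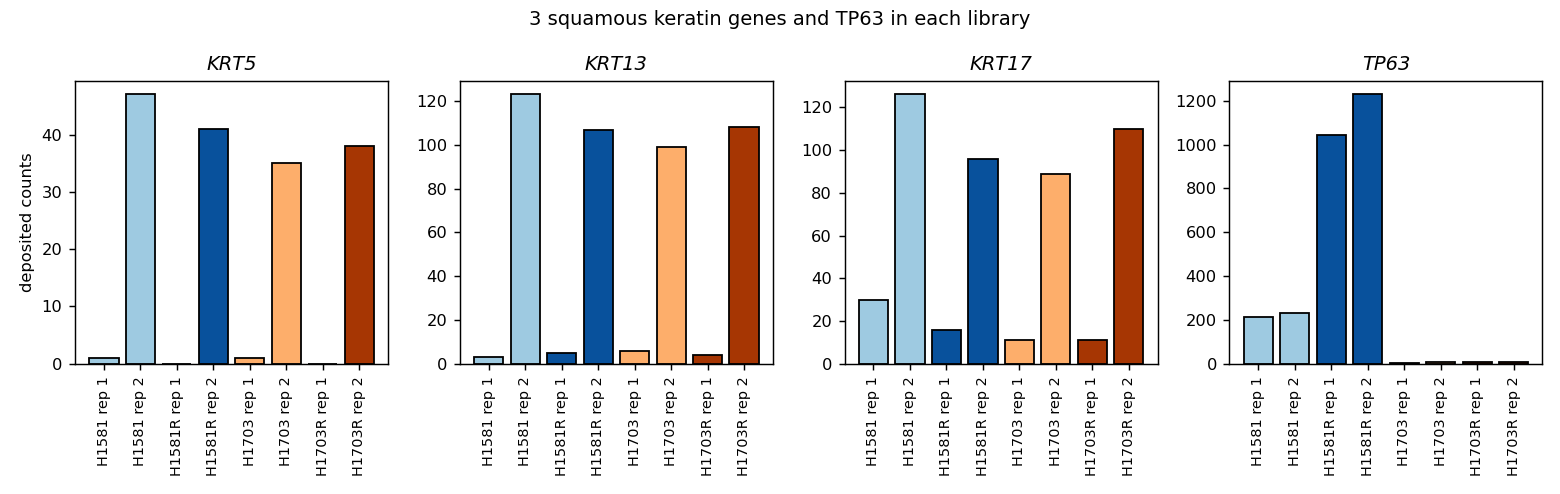
Deposited counts (linear axes from 0) of KRT5, KRT13, KRT17 and TP63 in each of the 8 libraries, coloured by variant. The keratins were high in the replicate 2 library of each variant (KRT13 99 to 123 counts) and low in the replicate 1 library (KRT13 3 to 6 counts), whereas TP63 followed the variant.

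Neuroendocrine genes moved in both directions. Of 22 genes on this list 15 were tested, and in NCI-H1581R 3 rose and 2 fell. CHGB had 768 and 1005 counts in NCI-H1581 and 168 and 250 in NCI-H1581R, against the direction of CHGA. CHGA, which encodes chromogranin A of secretory granules, went from 7 and 5 to 74 and 182 counts (log2 fold change 4.33, SE 0.81), and INSM2, the relative of INSM1, from 10 and 1 to 90 and 90 counts (3.95, SE 0.72). SNAP25, a protein of synaptic vesicle fusion, fell from 602 and 601 counts to 17 and 17 (-5.19, SE 0.34). Their edgeR adjusted p were 0.0187, 0.0170 and 0.000313, and without NCI-H1581 replicate 2 that of CHGA was 0.111. The log2 fold change of INSM2 was 6.37 without NCI-H1581 replicate 1 (adjusted p 0.0316) and 2.97 without NCI-H1581 replicate 2 (adjusted p 0.0979) in edgeR, and that of CHGA was 3.56 without NCI-H1581R replicate 2. In NCI-H1703R 1 gene rose, SYP (0.88, adjusted p 0.0415), and 3 fell, among them SYT1 (-1.21, adjusted p 0.00482) by edgeR. Both calls were lost without NCI-H1703 replicate 1 or 2. The log2 fold changes were then -1.25 and -1.18 for SYT1 and 1.13 and 0.68 for SYP. The call of SYP was also lost without either NCI-H1703R library. CHGA had 13 and 18 counts in NCI-H1703 and 0 and 0 in NCI-H1703R. Of 16 genes of tuft cells, 8 were tested. SOX9 was the 1 called higher in NCI-H1581R and GNG13 the 1 called higher in NCI-H1703R, from 13 and 13 to 92 and 64 counts (2.50, adjusted p 0.0359 by edgeR), which was not called without either NCI-H1703 library (adjusted p 0.237 and 0.255) or without NCI-H1703R replicate 1 (0.129).

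Forebrain transcription factors moved in both directions in NCI-H1581R. Of 25 on the list 23 were tested, and 5 rose and 5 fell, where 15.1% of all genes tested were called. Without either NCI-H1581 library fewer of the list were called higher, and as many were called lower. Without NCI-H1581R replicate 2 fewer were called higher and more were called lower. DLX1, a homeobox factor of forebrain interneurons, fell to 15 and 9 counts from 245 and 305 (log2 fold change -4.55, SE 0.43, adjusted p 0.00131 by edgeR), and POU3F3 fell from 278 and 341 to 25 and 39 (-3.32, SE 0.35, adjusted p 0.00213 by edgeR). LHX2, a LIM homeobox factor of the cortex and eye field, rose from 331 and 374 counts to 3935 and 4214 (3.48, SE 0.18, adjusted p 0.000113 by edgeR). NKX2-1, the ventral forebrain factor among the members, rose beside LHX2 while DLX1 and POU3F3 fell. In NCI-H1703R 1 of the 23 was called, EMX2, from 4 and 4 to 33 and 58 counts (3.40, adjusted p 0.0384 by edgeR), which was lost without either NCI-H1703 library (adjusted p 0.254 and 0.274) and without NCI-H1703R replicate 2 (0.103). With the replicate block 2 of this list were called higher and 4 lower in NCI-H1703R.

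Some forebrain factors differed between the sensitive lines. OTX2, a factor of the anterior neural plate, had 3579 and 4389 counts in NCI-H1581 and 4 and 8 in NCI-H1703 (log2 fold change -9.28), and SIX3, of the same region, had 6 and 9 counts in NCI-H1581 and 1325 and 1325 in NCI-H1703. DLX1 had like counts in both, 245 and 305 in NCI-H1581 and 287 and 265 in NCI-H1703. In all, 7 of the 23 were higher and 9 lower in NCI-H1703, in a comparison where 62.9% of all genes tested were called. Of 11 proneural and neurogenic bHLH factors tested, 2 rose and 2 fell in NCI-H1581R, and 2 fell in NCI-H1703R. ATOH8 fell in both lines, from 53 and 40 to 5 and 5 counts in NCI-H1581R (-3.24, adjusted p 0.0331) and from 1389 and 1370 to 544 and 632 in NCI-H1703R (-1.31, adjusted p 0.00419), by edgeR. Without NCI-H1581 replicate 1 the first of these had an edgeR adjusted p of 0.1002, and without NCI-H1703 replicate 2 the other had 0.105.

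Among the relatives of SOX2, 13 of 18 SOX genes were tested, and 2 rose and 2 fell in NCI-H1581R. SOX9, a factor of the distal lung bud, rose from 261 and 349 to 1234 and 1694 counts (log2 fold change 2.21, SE 0.23, adjusted p 0.00193 by edgeR). SOX4 fell from 381 and 597 to 27 and 39 counts (-3.93, SE 0.36, adjusted p 0.00110 by edgeR). In NCI-H1703R, where SOX2 fell, SOX13 fell from 2330 and 1918 to 798 and 843 counts (-1.44, SE 0.10, adjusted p 0.00157 by edgeR), which stayed called when any of the 4 libraries was left out. SOX4 fell by less there (-0.67) and SOX18 rose (0.89), with edgeR adjusted p of 0.0398 and 0.0108, and both calls were lost without either NCI-H1703 library (adjusted p 0.152 to 0.266), that of SOX4 also without either NCI-H1703R library (0.103 and 0.121). No other SOX gene on the list was called in NCI-H1703R.

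TP73, the nearest relative of TP63, moved against it in NCI-H1581R. TP73 counts were 1061 and 1110 in NCI-H1581 and 135 and 178 in NCI-H1581R (log2 fold change -2.85, SE 0.23, adjusted p 0.000624 by edgeR), while TP63 rose 4.93-fold. Of the 12 family relatives tested, 4 fell and 1 rose in NCI-H1581R and none was called in NCI-H1703R at the adjusted p threshold, against 1 with the replicate block. FOXP2, a forkhead factor, fell from 3556 and 4492 to 440 and 633 counts (-2.96, SE 0.22, adjusted p 0.000430), and NKX2-5, the heart homeobox factor, fell from 581 and 664 to 228 and 210 (-1.56, SE 0.22, adjusted p 0.00662), both by edgeR. The relative that rose was NKX2-8, the neighbour of NKX2-1 (1.07, SE 0.22, adjusted p 0.0306 by edgeR), which was lost without either NCI-H1581 library (adjusted p 0.241 and 0.285).

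Endoderm factors, which work beside FOXA1 and FOXA2, moved in both directions in NCI-H1581R. Of 22 listed 19 were tested, and 4 rose and 2 fell there. GATA6, an early endoderm factor of the lung, rose from 182 and 194 to 1186 and 1119 counts (log2 fold change 2.56, SE 0.21, adjusted p 0.000652 by edgeR), and FOXA3, the third FOXA gene, went from 30 and 25 to 125 and 70 (1.77, adjusted p 0.0951 by edgeR). GRHL3 had no count in either NCI-H1581 library and 48 and 56 counts after selection in NCI-H1581R. Against 3 counts per library this is at least 16.5-fold higher. HNF4G fell from 150 and 171 to 8 and 5 counts (-4.65, SE 0.52, adjusted p 0.00241 by edgeR). The call of FOXA3 was lost without either NCI-H1581 library (adjusted p 0.227 and 0.369) and without NCI-H1581R replicate 1 (0.180). In NCI-H1703R 2 of the 19 fell and none rose, against 6 lower and 2 higher with the replicate block. KLF5, a factor of lung and gut epithelia, fell from 651 and 673 to 34 and 59 counts (-3.91, SE 0.25, adjusted p 0.00137 by edgeR), and GATA6 fell from 120 and 108 to 27 and 26 (-2.17, SE 0.34, adjusted p 0.0187 by edgeR). The GATA6 call was lost without NCI-H1703 replicate 1 or 2, with log2 fold changes of -2.19 and -2.16.

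**Figure D4:**
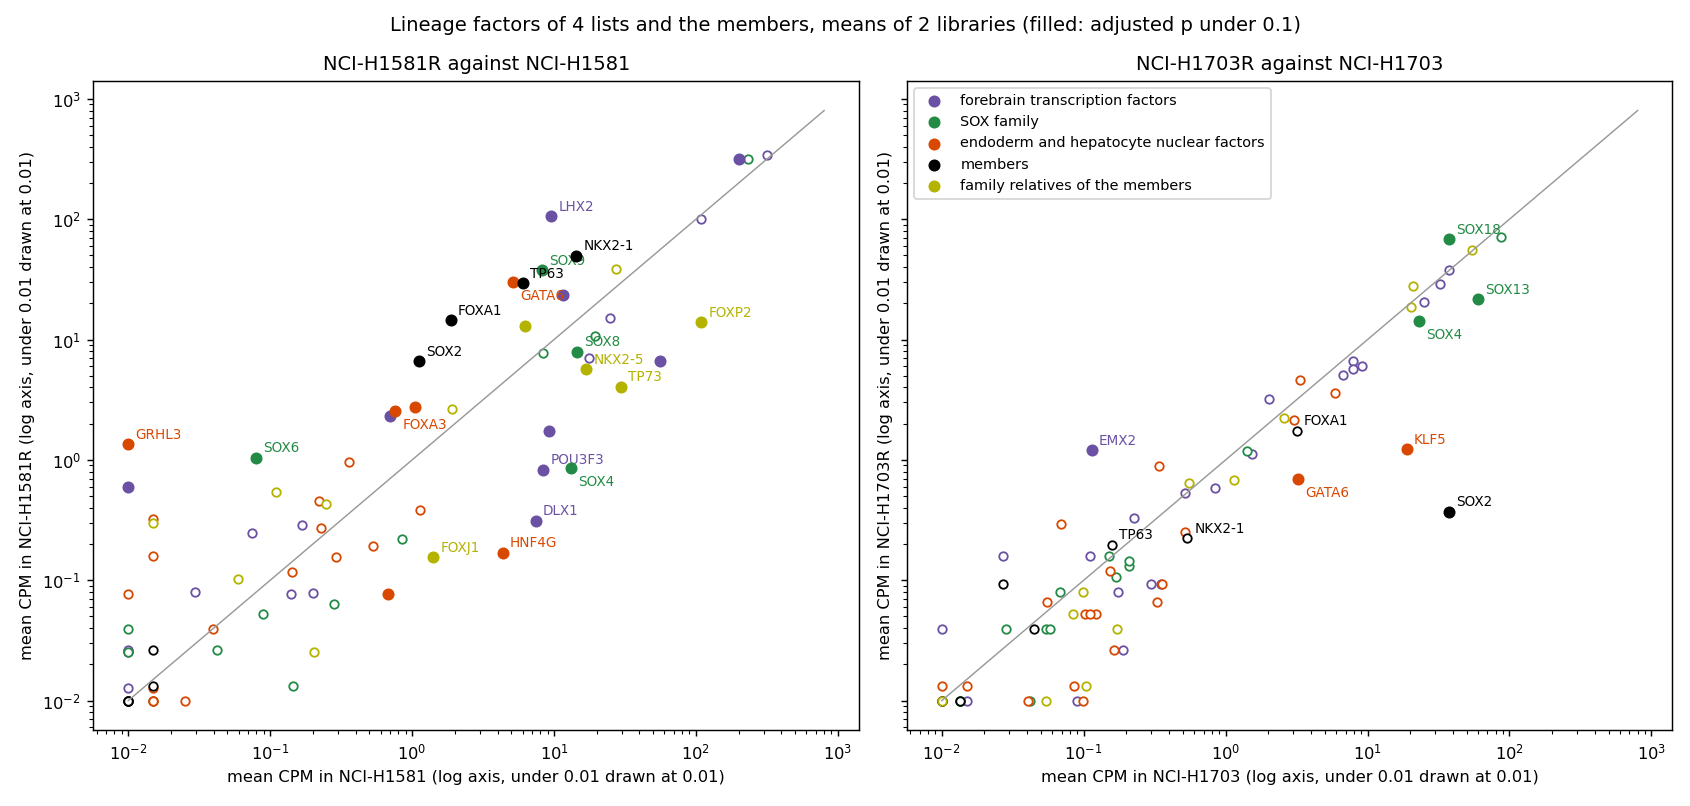
Mean CPM of each factor in the sensitive (x axis) and resistant (y axis) variant of both lines, on log axes, for the members and 4 lists, filled where the adjusted p was under 0.1, with the diagonal at equal levels. In NCI-H1581R the 4 members tested lie above the diagonal with LHX2, SOX9 and GATA6, and DLX1, POU3F3 and SOX4 lie below it, while in NCI-H1703R SOX2 and KLF5 lie farthest below.

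The genes around each member were compared as well, using genes whose start lies within 1 Mb of the start of the member. Around NKX2-1, 7 of 9 tested neighbours rose in NCI-H1581R and 0 of 9 were called in NCI-H1703R. Over all genes tested 7.63% were called higher in NCI-H1581R and 7.06% in NCI-H1703R. MBIP, 201 kb away, rose from 1404 and 1655 to 4561 and 3968 counts (log2 fold change 1.43, SE 0.17, adjusted p 0.00345 by edgeR), while PAX9, 136 kb away on the other side, had 29 and 25 counts in NCI-H1581 and was not called (adjusted p 0.951 by edgeR). RALGAPA1 (1.06), SLC25A21 (2.27), MIPOL1 (0.68), NKX2-8, SFTA3 and INSM2 rose too. Without NCI-H1581 replicate 1 the calls of RALGAPA1, SLC25A21, MIPOL1 and NKX2-8 were lost (edgeR adjusted p 0.111 to 0.528), and without NCI-H1581 replicate 2 those of RALGAPA1, MIPOL1 and NKX2-8 (edgeR adjusted p 0.144 to 0.333). MIPOL1 also lost its call without NCI-H1581R replicate 2 (adjusted p 0.108). Around FOXA1, which shares some of these neighbours, 2 of 4 rose in NCI-H1581R, SLC25A21 and MIPOL1, and 0 of 4 were called in NCI-H1703R.

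Around SOX2 there were 2 tested neighbours, FXR1 and DNAJC19, and neither was called in either resistant variant, although SOX2 rose 6.25-fold in NCI-H1581R and fell 98.6-fold in NCI-H1703R. Around TP63, 0 of 5 neighbours were called in NCI-H1581R and 3 of 5 rose in NCI-H1703R, where 7.06% of all genes tested were called higher. P3H2, a collagen prolyl hydroxylase 491 kb away, rose from 7137 and 7856 to 37496 and 43703 counts in NCI-H1703R (log2 fold change 2.35, SE 0.15, adjusted p 0.00137 by edgeR), and CLDN1, a tight junction claudin, rose from 4454 and 4605 to 10244 and 14061 (1.34, SE 0.17, adjusted p 0.00969 by edgeR). TPRG1 had 5 and 0 counts in NCI-H1703 and 30 and 37 in NCI-H1703R (adjusted p 0.0543 by edgeR). Without either NCI-H1703 library CLDN1 and TPRG1 were not called (adjusted p 0.150 to 0.254), and TPRG1 was not called without either NCI-H1703R library (0.110 and 0.137). TP63 itself stayed at 4 to 9 counts in these libraries. In the wider list of 19 tested genes near SOX2 and TP63 on the long arm of chromosome 3, 7 rose in NCI-H1703R and none fell, and in NCI-H1581R 1 rose. Without either NCI-H1703 library 1 gene of the list was called as higher, without either NCI-H1703R library 3 were, and without either NCI-H1581 library the 1 call in NCI-H1581R was lost. DNA copy number was not analysed here.

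**Figure D5:**
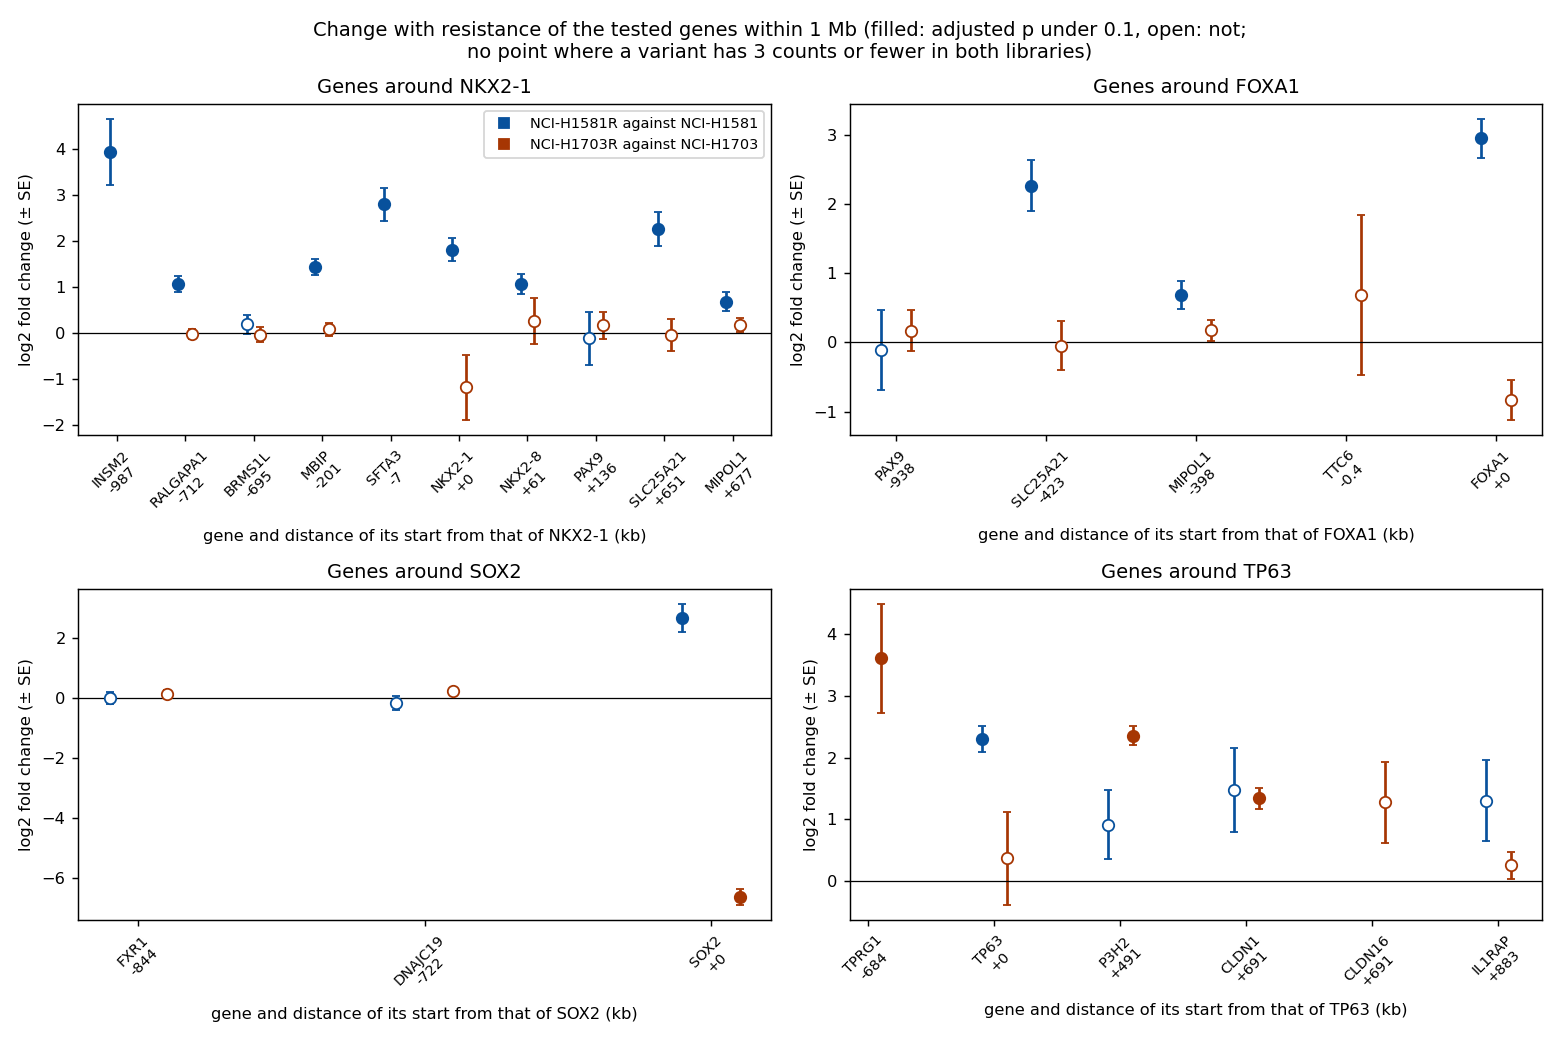
Log2 fold changes (points, with bars for SE) of the tested genes within 1 Mb of NKX2-1, FOXA1, SOX2 and TP63, in order along the chromosome with the distance in kb under each name, filled where the adjusted p was under 0.1 and left out where a variant had at most 3 counts in both libraries. Around NKX2-1, 7 of 9 neighbours rose in NCI-H1581R, and around TP63 3 of 5 rose in NCI-H1703R while TP63 was not called. Over all genes tested 7.63% and 7.06% were called higher in these comparisons. Several of the neighbour calls were lost with a library left out.

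The genes most like each member across the 8 libraries were found by the root mean square difference of centred log2(CPM + 0.5) values among 13629 genes. For NKX2-1 these were STC2 (0.252), a secreted glycoprotein, IGLON5 (0.313) and the T-box factor TBX2 (0.326). For TP63 they were the channel gene ANO3 (0.193), ULBP1 (0.201) and MTARC1 (0.241), and for FOXA1 they were DGKH (0.162), ANKRD34B (0.182) and TMEM52B (0.217). SOX2 had no close match, with FHOD3 at 0.808, FLRT2 at 0.828 and the transglutaminase TGM2 at 0.987. FLRT2, a membrane protein of cell adhesion, had 59 and 89 counts in NCI-H1581, 1026 and 1056 in its resistant variant, 1597 and 1343 in NCI-H1703 and 76 and 89 in NCI-H1703R. The libraries share the 4 variants, so these values describe the pattern over 4 variants.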

How the data were processed

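Total RNA of 8 libraries was sequenced as paired reads of 100 bp. The authors quantified the reads with Salmon against GRCh38 and imported them with tximport, and per the labels cutadapt was also used. The table they deposited holds estimated counts, in whole numbers and not normalised, with no Salmon version, annotation or strand setting given in the sources used here. Groups came from the labels.

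Genes with at least 10 counts in total were tested with edgeR 4.0.16 in R 4.3.3 (TMM, quasi-likelihood test with the bias-adjusted deviance, two-sided, Benjamini-Hochberg adjustment, called under 0.1), on the 4 libraries of each comparison and on all 8 for the interaction. The paper's methods use DESeq2, which was an alternative here (version 1.42.0). The SE is the log2 fold change divided by the square root of F. CPM used TMM factors of all 8 libraries. All 8 columns of the table were mapped to samples. Replicates differed by more than sampling noise (chi-square per degree of freedom 23.3 to 96.8). Scripts were tested on simulated data.

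The main tests did not use the replicate numbers and took the libraries of a variant as independent. Pairing by replicate number was an alternative only, as the replicate block, since the methods describe a repeat of the procedure. Same-numbered libraries deviated together within a line (r = 0.288 for NCI-H1581 and NCI-H1581R and 0.557 for NCI-H1703 and NCI-H1703R, across 9716 genes). Across lines r ran from -0.569 to 0.0853.

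The members and lists were chosen with earlier results of these data known. Named in each list were up to 4 called genes with the largest change and a mean of at least 1 CPM in a variant. A few list genes are counted but not reported by name or plotted here. SFTPB, SFTPC, SCGB3A2, AGER, NAPSA, SIX3, CHGB, PKP1, TRIM29 and the keratins were named after their values were seen, as were genes near the members. So were LPCAT1, ABCA3 and ETV5 in NCI-H1581R and CHGA in NCI-H1703R. Alternatives were DESeq2, RLE normalisation, other filters on counts, legacy quasi-likelihood, the replicate block, a single fit of all libraries, a threshold of 0.05, and leaving out each library. With a library left out, its variant is assumed to vary like the other. Promoter sequences are from RefSeq (GRCh38.p14).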

Additional observations from a re-analysis of the deposited data

Results flagged for a closer look

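For 3 members the change with resistance differed between the lines by the interaction test in edgeR, with the change in NCI-H1703 minus that in NCI-H1581 on the log2 scale. SOX2 had -9.29, with a rise in both NCI-H1581R libraries and a fall in both NCI-H1703R libraries. FOXA1 had -3.80, with a rise in NCI-H1581R and lower values in NCI-H1703R. NKX2-1 had -3.02, where the NCI-H1703 and NCI-H1703R libraries held 6 to 24 counts. No group had 4 or more libraries, so single libraries could not be examined as outliers.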

How the results depend on the processing

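The calls of the members within NCI-H1581 held under every setting other than leaving out NCI-H1581 replicate 2, without which SOX2 was not called. The number of all genes called moved by more than 1.5 times in both lines. In NCI-H1581R it was 2743, and became 1793 at a threshold of 0.05, 4539 in a single fit of all 8 libraries and 1128 to 5185 with a library left out. In NCI-H1703R it was 2683, and became 1640 at 0.05, 1730 in the single fit and 274 to 1686 with a library left out. With the replicate block it was 6356, and 2 members were called, SOX2 and FOXA1, in place of 1, and the block changed no other call of a member, or of a named gene called without it, within a line. When each library of a fit had to hold 10 counts or more of a gene, 1 member could be tested and was called, FOXA1, between the resistant variants (in place of 4) and in the interaction (in place of 3). FOXA1 also passed in NCI-H1703R under that filter (adjusted p 0.0822). At 0.05 the calls of FOXA1 between the sensitive lines, NKX2-1 in the interaction, FOXA3, MIPOL1, TPRG1, LAMP3 and LPCAT1 were lost. MIPOL1 was not called with RLE normalisation or no filter (edgeR adjusted p 0.101 and 0.102). FOXA1 between the sensitive lines and TPRG1 were not called with the legacy test (edgeR adjusted p 0.131 and 0.102). LAMP3 was not called in the single fit (edgeR adjusted p 0.210). With the legacy test the difference between the lines was called for TP63 (0.0455). With a library left out, 3 to 4 members were called in NCI-H1581R, 1 in NCI-H1703R, 3 between the sensitive lines, 4 between the resistant variants and 2 to 3 in the interaction, and the numbers of all genes called were 9603 to 10969, 6120 to 10361 and 1571 to 4141 in the last 3 comparisons. TP63 in NCI-H1703R had log2 fold changes from -0.066 to 0.90 with a library left out, so its sign was not settled, and DESeq2 gave it no adjusted p. For the resistant variants, same-numbered libraries deviated in opposite ways, and with crossed numbers, added after seeing the data, 11063 genes and 4 members were called. Low counts in NCI-H1703 limit what can be said of a fall of NKX2-1 or TP63 in that line. Where a setting moved a count, the cause was not tested.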
